A study of Caenorhabditis elegans with 25 samples.

Results

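The comparison described here is that of animals without functional EGL-6 receptor and the wild type, at the level of polyadenylated RNA from whole Caenorhabditis elegans on day 1 of adulthood. Its members are the 10 libraries whose columns in the deposited count table end in the receptor mutant's or the wild type's name, 5 of each, out of 25 libraries in the series. The egl-6(lof) strain (AEF236) carried the allele n4537 on chromosome X and had been outcrossed 6 times, and N2 served as its wild-type control. A second pair of genotypes overexpressed flp-17 from an extrachromosomal array and allowed the same mutation to be examined in other animals: flp-17oe egl-6(lof) (AEF237) held the allele n4537 and the array, and flp-17oe (AEF148) held the array alone. Animals of both array strains were sorted for a fluorescent marker before collection, because not all animals inherit such an array, whereas egl-6(lof) and N2 were washed and replated. The fifth genotype, flp-17(lof) (AEF243, allele n4894), lacked the peptide. Each sample held 500 to 600 animals. Replicate 1 of every genotype formed batch 1 and replicates 2 to 5 formed batch 2. No label states that replicates were independent cultures, and p-values therefore measure the spread between samples, which may be technical.

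EGL-6 is a G protein-coupled receptor for the FMRFamide-like peptides FLP-17 and FLP-10. FLP-17 is released by the gas-sensing BAG neurons, and EGL-6 acts in the HSN motor neurons, where it slows egg laying through the Go protein GOA-1. Because the receptor works in few cells, whole-animal RNA mixes any change in those cells with that of all other tissues, and in such bulk samples fewer cells of a type cannot be told apart from less RNA per cell.

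Total counts ran from 48048407 to 76965846 per egl-6(lof) library and from 42696185 to 67059902 per N2 library. Genes with at least 10 counts in at least 5 of the 10 libraries were tested, which left 14040 of 42532. Levels are given as CPM, counts set to a common library total after scaling for library composition, with SD over replicates. A gene is called changed where edgeR's quasi-likelihood test gave a Benjamini-Hochberg adjusted p under 0.05 over all 14040 genes. Ribosomal RNA genes took 0.28% to 2.51% of counts in egl-6(lof) and 0.332% to 3.12% in N2. Among tissue markers, the body wall muscle myosin gene unc-54 had 1260 to 1689 CPM in egl-6(lof) and 1177 to 1645 CPM in N2. The yolk gene vit-2 had 19170 to 22690 CPM in egl-6(lof) and 17590 to 22890 CPM in N2. Some other markers were far scarcer. Neuronal rab-3 was at 3.29 to 3.76 CPM in egl-6(lof) and 2.61 to 3.58 CPM in N2. Hypodermal dpy-7 was at 0.613 to 1.28 CPM in egl-6(lof) and 0.437 to 0.736 CPM in N2. For each of these genes the ranges overlapped between genotypes. The 13 genes of male neurons and seminal cells summed to 1.26 to 1.81 CPM in egl-6(lof) and 1.45 to 2.52 CPM in N2.

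The egl-6 transcript (WBGene00001175, ce11 chromosome X, 5931122 to 5934532, plus strand) was measured at 2.38, 2.27, 3.05, 3.44 and 2.93 CPM in the egl-6(lof) libraries, against 5.39, 5.63, 6.37, 6.92 and 5.84 CPM in the N2 libraries. The groups did not overlap, and an exact permutation test on log2 CPM gave p = 0.007937 (two-sided), the smallest that 5 libraries against 5 allow. The fitted log2 change was -1.10 (SE 0.12), with -1.07 (SE 0.13) in batch 2 and a difference of -1.17 between the single batch 1 libraries. The mutant thus kept a measurable transcript, at 128 to 206 counts per library. The ligand gene flp-17 (chromosome IV, 17190204 to 17191891, minus strand) averaged 4.65 ± 0.228 CPM in egl-6(lof) and 4.62 ± 0.478 CPM in N2 (n = 5 each), and the groups overlapped (exact permutation p = 0.9127).

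Over both batches, with batch as a term in the fit, 91 genes were called, 0.648% of those tested. Of these 82 rose and 9 fell, and 63 differed by more than 2-fold. Within batch 2 alone, 4 libraries against 4, 725 genes were called, 5.16% of those tested, with 705 rises and 20 falls. All 91 genes called over both batches were also called within batch 2 in the same direction. For 513 genes, 3.65% of those tested, the difference between egl-6(lof) and N2 depended on batch, by a test of that dependence in which the single batch 1 libraries are assumed to vary like those of batch 2. For 506 of the 513 it was lower in batch 1 than in batch 2. Among the 705 rises of batch 2, 606 genes had less transcript in egl-6(lof) than in N2 in batch 1, 86% of them against 50.6% of all genes tested. Of the 91 calls themselves 42 depended on batch, 38 of them with less transcript in egl-6(lof) in batch 1. Leaving out single libraries moved the count of 91 widely: it was 583 without the batch 1 library of egl-6(lof), 450 without that of N2, and 30 to 62 without any one of the 8 libraries of batch 2.

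**Figure D1:**
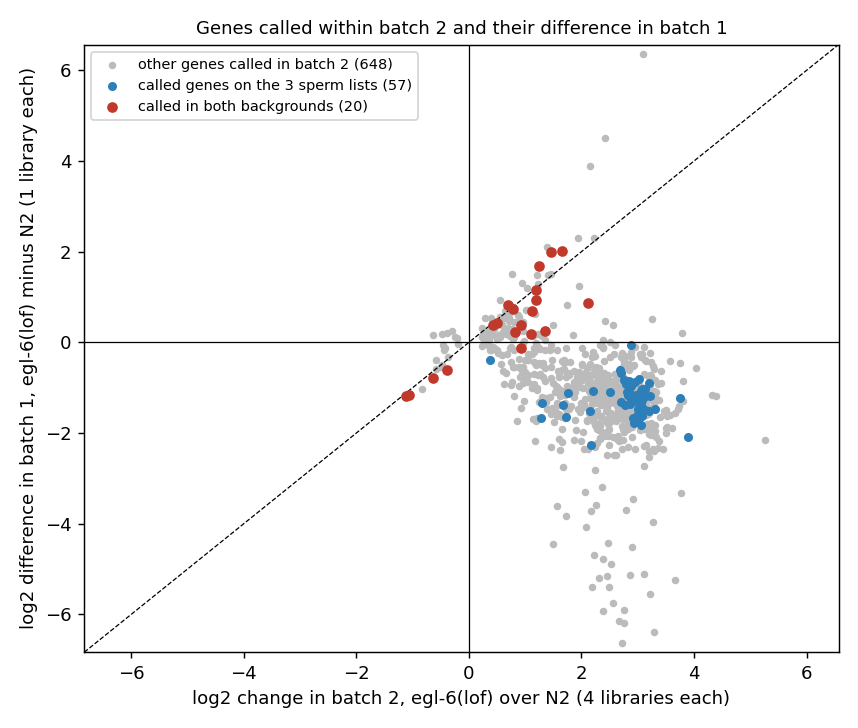
Each point is 1 of the 725 genes called within batch 2, at its log2 change there (horizontal, egl-6(lof) over N2, 4 libraries each) and its log2 difference between the single batch 1 libraries (vertical). The dashed line marks equal values. The msp genes lie to the right and below 0 in batch 1, whereas spe-41, a sperm gene drawn among those also called in array animals, lies above 0 there (0.23). Of the 20 genes that were also called in array animals, 15 lie above 0 in batch 1 and 5 below. In batch 2, 4 of the 20 were falls. The batch 1 libraries were part of the fit that called these 20.

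A group of 20 genes was called in egl-6(lof) against N2 and, in the same direction, in the mutant with the array compared with the array alone. They are 22% of the 91 calls and 10.9% of the 184 genes called between the array genotypes, where 1.31% of genes tested were called. These libraries are not those of the first comparison, although 1 fit supplied both. Over all tested genes, 55.2% had the same sign in both comparisons. Of the 49 called genes whose difference did not depend on batch, 40 had the same sign in array animals and 19 were called there. Of the 42 called genes whose difference did depend on batch, 14 had the same sign and 1 was called. Under 19 other settings of the fit, 12 of the 20 kept their call in every one, and 14 to 17 of the 20 were called when any 1 batch 2 library was left out.

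The UDP-glucuronosyltransferase gene ugt-64 (chromosome V, 3503080 to 3506352, minus strand), of a family that attaches sugars to small lipophilic compounds, was the most abundant of the genes that rose in both backgrounds. It stood at 66.7, 64.2, 59.8, 57.9 and 53.8 CPM in egl-6(lof), against 20.6, 31.2, 25.3, 22.1 and 21.4 CPM in N2. Every egl-6(lof) library was above every N2 library, in both batches. The log2 change was 1.32 (SE 0.11, adjusted p = 2.93e-07 by edgeR), with 1.25 in batch 2 and 1.69 in batch 1. In array animals it stood at 53.4 to 70.8 CPM in flp-17oe egl-6(lof), against 20.6 to 30.3 CPM in flp-17oe, a log2 change of 1.32 (SE 0.11). In flp-17(lof), whose comparison shares the N2 libraries, it stood at 73.9 to 83.1 CPM. The gene overlaps C07G3.10 on the opposite strand by 72 bases, and no strand setting is given for the counting.

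Members of the F-box and MATH/BTB families, which encode substrate-binding parts of ubiquitin ligases, were 4 of the 20. Of the 14040 genes tested, 214 were FBXA, FBXB and FBXC genes and 53 were MATH and BTB genes. The F-box gene fbxa-192 (chromosome V, 17640672 to 17650527, minus strand) had 24.7, 23.8, 25.8, 24.4 and 25.4 CPM in egl-6(lof), against 13.0, 12.0, 10.4, 11.0 and 10.2 CPM in N2. The groups did not overlap. The log2 change was 1.20 in batch 2 and 0.93 in batch 1, and came to 1.14 overall (SE 0.10, adjusted p = 2.95e-07 by edgeR). In array animals it stood at 23.9 to 29.4 CPM in flp-17oe egl-6(lof), against 8.03 to 10.4 CPM in flp-17oe, and the log2 change in flp-17(lof), which shares the N2 libraries, was 1.29. A second F-box gene, fbxa-107 (chromosome V, 18123939 to 18125235, plus strand), had 8.10, 9.00, 8.55, 8.51 and 8.47 CPM in egl-6(lof), against 4.53, 5.31, 5.53, 5.68 and 5.07 CPM in N2, and rose by log2 0.71 (SE 0.07) here and 0.81 (SE 0.07) in array animals. Unlike ugt-64 and fbxa-192 it stood close to N2 in flp-17(lof), at log2 0.12 (adjusted p = 0.9999 by edgeR). The MATH/BTB genes bath-13 and bath-1, both on chromosome II, rose by log2 1.52 (SE 0.27) and 0.41 (SE 0.08). Of bath-13 there was little, 0.973 ± 0.25 CPM in egl-6(lof) and 0.328 ± 0.188 CPM in N2.

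T03D3.5 (chromosome V, 2823806 to 2826835, minus strand) had 13.9, 19.3, 19.9, 19.3 and 19.3 CPM in egl-6(lof), against 10.7, 10.1, 10.7, 10.5 and 10.3 CPM in N2. The batch 1 library of egl-6(lof) was apart from the other four of its genotype but still above all N2 libraries, and the difference depended on batch (log2 -0.52, batch 1 minus batch 2, adjusted p = 0.0141 by edgeR). It was the single gene of the 20 called for batch. C08F11.7 (chromosome IV, 13637275 to 13638666, plus strand) had 0.966, 1.18, 1.29, 1.07 and 1.10 CPM in egl-6(lof), against 0.214, 0.32, 0.377, 0.323 and 0.471 CPM in N2. That is 3.26-fold higher, with a log2 change of 1.71 (SE 0.17) here and 1.47 (SE 0.16) in array animals, resting on 52 to 90 counts per egl-6(lof) library and 9 to 27 per N2 library.

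The other rises shared by both backgrounds were of low-abundance genes. The cuticlin-like gene cutl-10 rose by log2 1.18 (SE 0.18), to 2.41 ± 0.265 CPM in egl-6(lof), against 1.05 ± 0.36 CPM in N2. F15D4.5 rose by 1.04 (SE 0.13) and the aspartyl protease gene asp-17 by 0.73 (SE 0.15), although asp-17 was slightly lower in egl-6(lof) than in N2 in batch 1 (log2 -0.13). The gene spe-41, of a TRP channel that sperm need to fertilise, rose by 0.70 (SE 0.11) and differs from the sperm genes described further on in that it also rose in array animals, by 0.55 (SE 0.11). The remaining rises were Y41D4B.26, F40D4.13, Y38F2AL.12, Y102A5C.36 and the pseudogene W06A11.4, at log2 1.93, 1.18, 0.92, 0.76 and 0.48. Y41D4B.26 was at 0.314 ± 0.0755 CPM in egl-6(lof) and 0.0832 ± 0.0316 CPM in N2. These 5 and bath-1, bath-13 and asp-17 are the 8 that lost their call under at least 1 other setting.

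Among the 9 genes that fell, 4 also fell in array animals, egl-6 itself among them. The most abundant was sax-2 (chromosome III, 5109701 to 5130676, plus strand), of a large Furry-family protein that restrains neurite growth. It stood at 74.0, 79.7, 68.0, 73.3 and 82.7 CPM in egl-6(lof), against 167, 125, 203, 171 and 162 CPM in N2. No egl-6(lof) library came near the lowest N2 library, and the log2 change was -1.13 (SE 0.13, adjusted p = 1.06e-05 by edgeR), with -1.11 in batch 2 and -1.17 in batch 1. In array animals it was -0.95 (SE 0.13), and flp-17(lof) stood at 127 to 158 CPM. F56B3.2 (chromosome IV, 764061 to 768584, minus strand) had 8.17, 8.93, 8.98, 8.75 and 7.99 CPM in egl-6(lof), against 14.0, 14.8, 12.1, 13.6 and 13.6 CPM in N2, a log2 change of -0.67 (SE 0.08) that came to -0.56 (SE 0.08) in array animals. The smallest fall of the 4 was F28F8.7 on chromosome V, at log2 -0.44 (SE 0.08) here and -0.53 (SE 0.08) in array animals.

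**Figure D2:**
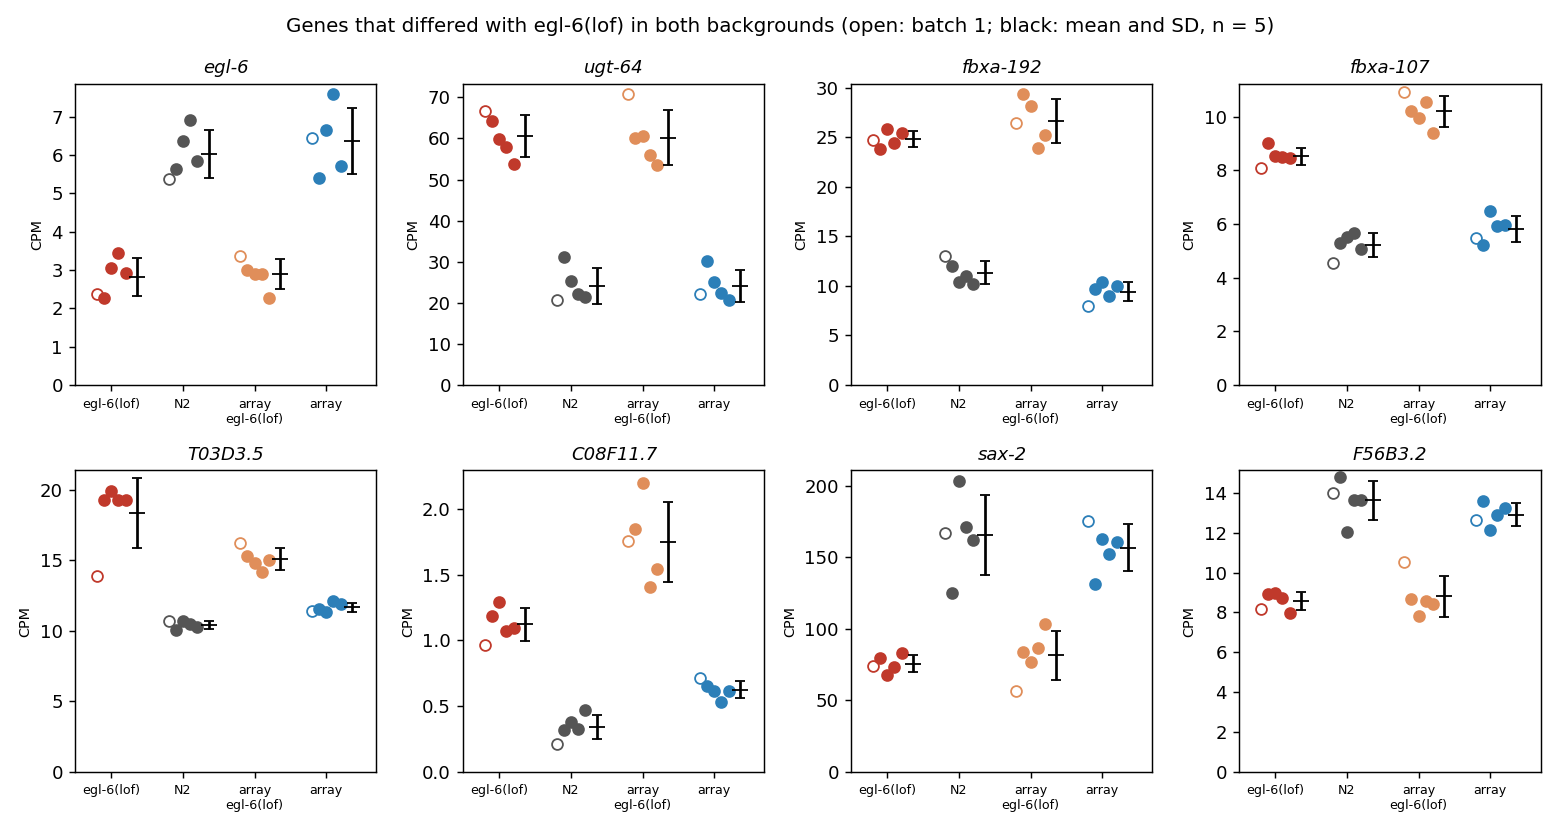
Points are CPM of single libraries for egl-6 and 7 genes called in both backgrounds, in egl-6(lof), N2, flp-17oe egl-6(lof) and flp-17oe (the last 2 labelled array), with open points for batch 1 and black marks for the mean and SD of 5. In each of the 8 panels the egl-6(lof) libraries lie wholly on one side of the N2 libraries.

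**Figure D3:**
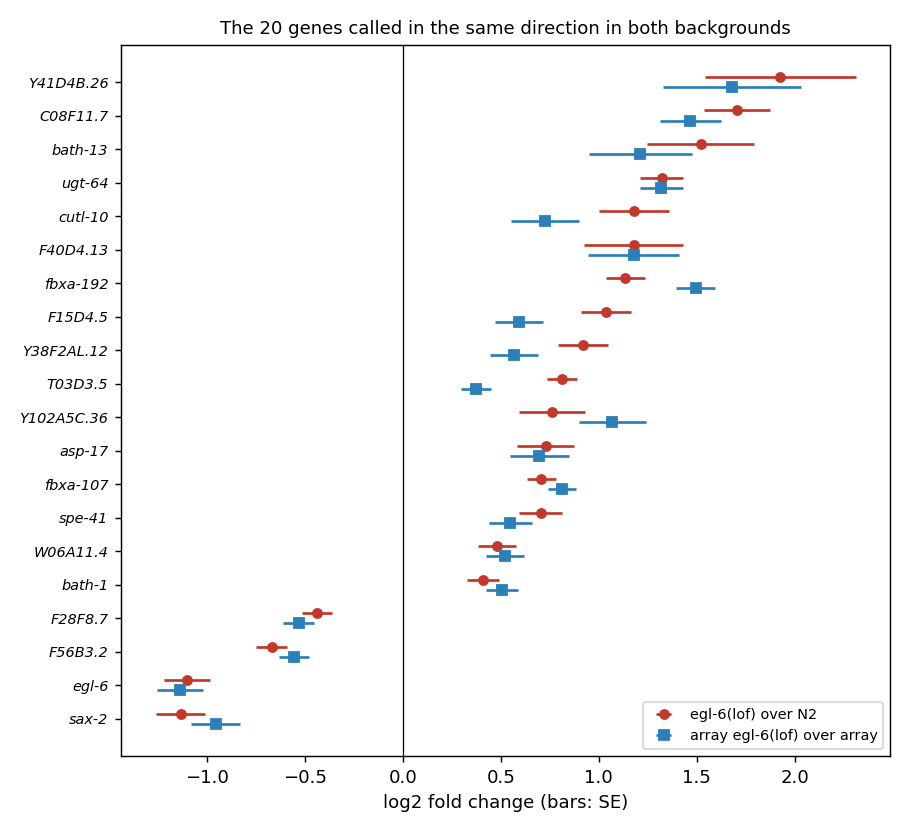
The log2 fold change and its SE for each of the 20 genes, for egl-6(lof) over N2 (circles) and flp-17oe egl-6(lof) over flp-17oe (squares). They run between -1.13 for sax-2 and 1.93 for Y41D4B.26 in the first comparison, and 4 of the 20 lie below 0.

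Other genes were not called in array animals in the same direction, which does not show that they were unchanged there. None of the falls was called for a difference between the backgrounds. The 5 remaining falls were of C10C6.7 (log2 -0.89, SE 0.13), ndx-2 of the Nudix hydrolase family (-0.60, SE 0.13), cls-3 of the CLASP family that stabilises microtubules (-0.56, SE 0.10), B0261.8 (-0.52, SE 0.12) and T10D4.6 (-0.38, SE 0.06). B0261.8 lost its call in 11 of 19 other settings and ndx-2 in 9, while C10C6.7, cls-3 and T10D4.6 kept theirs in all 19. C10C6.7 had 1.41, 2.13, 1.70, 1.86 and 1.66 CPM in egl-6(lof), against 2.90, 3.58, 2.97, 3.65 and 3.10 CPM in N2, and all array and flp-17(lof) libraries were at 1.08 to 1.86 CPM. Every N2 library was above every other library for this gene. cls-3 stood at 16.0 to 18.2 CPM in egl-6(lof) and 21.1 to 30.1 CPM in N2, without overlap. With sax-2 it made up the called members of the 23 tested genes of neurite outgrowth. That list has sax-2 in its name and was written with earlier results of these data known, so the call of sax-2 is no result about the list. Of the 23, 8 were higher and 15 lower in egl-6(lof) over both batches, and 11 were higher within batch 2. Over all 14040 genes tested, 6573 were higher over both batches and 7152 within batch 2.

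The effect of egl-6(lof) differed between the plain and the array background for 12 genes, 0.0855% of those tested, by the interaction term of the fit. B0511.11 (chromosome I) was the one gene called in both backgrounds in opposite directions, and is named because of its values, outside the rule for naming genes, as are C38D9.2, scrm-4, pdfr-1, pud-3, pud-4 and the uncalled genes of the peptide pathway given below. B0511.11 had 3.83, 6.33, 6.35, 6.21 and 5.23 CPM in egl-6(lof), against 2.92, 2.81, 1.82, 1.94 and 1.99 CPM in N2. In array animals the order was the other way round, with 3.05 to 4.08 CPM in flp-17oe egl-6(lof), against 7.33 to 9.25 CPM in flp-17oe. Its log2 change was 1.30 (SE 0.16) against N2 and -1.22 (SE 0.15) in array animals, a difference of -2.52 (SE 0.22, adjusted p = 3.32e-07 by edgeR).

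Among further rises, that of C38D9.2 was larger in batch 2 than in batch 1, while scrm-4 and pdfr-1 were not called for dependence on batch. C38D9.2 (chromosome V) had 0.353, 1.64, 2.10, 2.09 and 1.61 CPM in egl-6(lof), against 0.237, 0.122, 0.20, 0.171 and 0.296 CPM in N2, a log2 change of 2.88 (SE 0.39) that came to 3.25 in batch 2 and 0.51 in batch 1. The scramblase-family gene scrm-4 rose by 1.07 (SE 0.14). The gene pdfr-1, of the receptor for the PDF neuropeptides, rose by 0.56 (SE 0.09, adjusted p = 0.00301 by edgeR), to 7.38 ± 0.399 CPM in egl-6(lof), against 5.01 ± 0.557 CPM in N2. It was 6.85 to 7.86 CPM in egl-6(lof) and 4.36 to 5.77 CPM in N2, so that no library of one genotype fell within the range of the other. In array animals its log2 change was 0.32 and was not called (adjusted p = 0.107 by edgeR). Both scrm-4 and pdfr-1 overlap a gene on the opposite strand, kpc-1 and M01G4.6, whose reads could not be told apart if counting ignored strand.

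Sperm genes rose within batch 2. Major sperm proteins form the cytoskeleton by which nematode sperm crawl and signal oocytes to mature. In hermaphrodites sperm are made late in larval life and stored. Of 27 tested msp genes, 10 were called as higher over both batches, with a median log2 change of 2.27, against a median of -0.00799 over all genes tested. Within batch 2 all 27 were called as higher, with a median of 3.03. The shares called among all genes tested were 0.648% over both batches and 5.16% within batch 2. Summed over the family, the egl-6(lof) libraries of batch 2 had 139, 171, 161 and 83.5 CPM, against 17.4, 23.0, 20.1 and 10.5 CPM in the N2 libraries of batch 2. The lowest egl-6(lof) library of batch 2 thus held several times the highest N2 library of that batch. In batch 1 the order was reversed, with 74.4 CPM in egl-6(lof) and 173 CPM in N2, and none of the 27 genes was higher in egl-6(lof). For all 27 the test of dependence on batch was called, as lower in batch 1.

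N2 itself thus ran between 10.5 and 173 CPM of msp transcripts. The array genotypes showed the same separation of batches: 64.6 CPM in flp-17oe egl-6(lof) and 76.0 CPM in flp-17oe in batch 1, and 2.72 to 19.1 CPM in flp-17oe egl-6(lof) and 5.43 to 14.5 CPM in flp-17oe in batch 2. Their ranges overlapped in batch 2, the median log2 change of the 27 genes between them was -0.18, and none was called. In flp-17(lof) the sum was 25.7 to 48.2 CPM in batch 2 and 39.2 CPM in batch 1. The msp genes are close copies of each other, so the share of single members is uncertain and the sum is the safer measure. The 10 calls over both batches also depended on the fit: no msp gene was called without the batch term or with the egl-6(lof) and N2 libraries fitted alone, and all 27 were called without either batch 1 library.

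**Figure D4:**
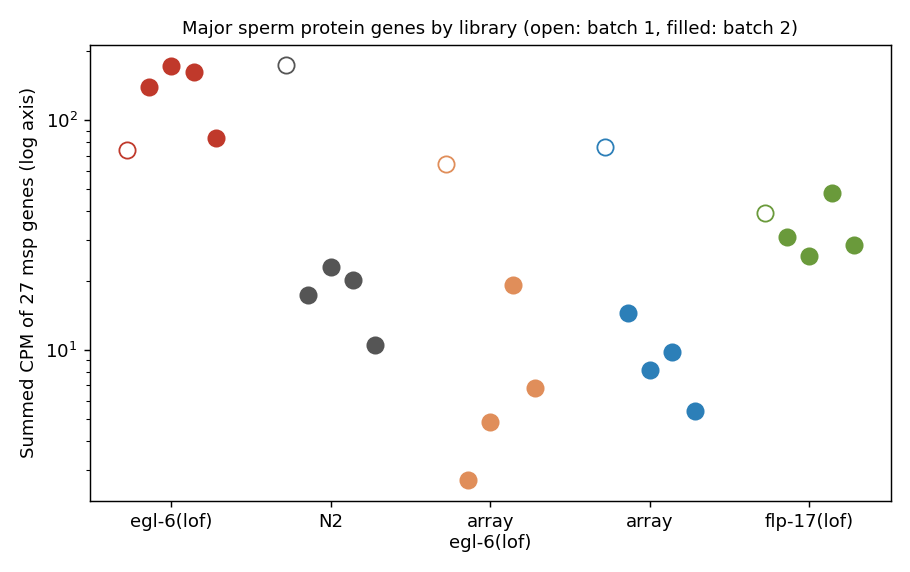
Each point is the summed CPM of the 27 tested msp genes in 1 library, on a log axis, by genotype, with open points for batch 1 and filled points for batch 2 (array: flp-17oe). In batch 2 the egl-6(lof) libraries lie at 83.5 to 171 CPM and the N2 libraries at 10.5 to 23.0 CPM, whereas in batch 1 N2 lies above egl-6(lof).

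Single sperm genes followed the family. The gene msp-31 (chromosome II, 4916179 to 4916562, minus strand) had 5.03, 9.01, 10.9, 11.3 and 5.83 CPM in egl-6(lof), against 9.85, 1.69, 1.15, 1.43 and 0.802 CPM in N2, where the first value of each genotype is the batch 1 library. The N2 library of batch 1 lay among the egl-6(lof) libraries and far from the other N2 libraries. In batch 2 the log2 change was 2.87 (SE 0.28, 7.32-fold), and the difference in batch 1 was -0.96. The gene msp-81 (chromosome IV) changed by 3.21 (SE 0.41) in batch 2 and stood at -1.52 in batch 1. Its neighbours in rank among the batch 2 rises included ssq-2, of a sperm-specific family (3.00, SE 0.37), and K07A1.5 (3.31, SE 0.33).

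Other sperm genes were called in part. Of 38 tested members of the small sperm-specific families, 3 were called over both batches and 21 within batch 2, where 24 were higher. Among all genes tested, 0.648% were called over both batches and 5.16% within batch 2. The 3 calls became 0 without the batch term, with the 2 genotypes alone, or without any one of 7 of the 8 batch 2 libraries, and 19 or 21 without the batch 1 library of N2 or of egl-6(lof). Summed over the list, batch 2 libraries had 110 to 181 CPM in egl-6(lof) and 80.8 to 118 CPM in N2, so that the ranges overlapped. Examples are nspd-1, of nematode-specific peptide family D, at log2 2.95 in batch 2 (SE 0.34) and ssq-1 at 2.20 (SE 0.23). Of 19 tested genes with a function in spermatogenesis or fertilisation, 2 were called over both batches, spe-41 and gipc-1, and 10 within batch 2, where 14 were higher. While spe-41 kept its call in all 19 other settings, gipc-1 lost it in 12, and the count ran from 1 to 7. These 10 included spe-11, which sperm deliver for eggshell formation and polar body extrusion in the embryo (3.01, SE 0.34), and gsp-4, of a sperm protein phosphatase (6.5-fold). The spe-11 transcript was at 1.63, 2.20, 2.34 and 1.10 CPM in the egl-6(lof) libraries of batch 2, against 0.152, 0.355, 0.285 and 0.14 CPM in N2, and at 0.761 CPM in egl-6(lof) and 2.61 CPM in N2 in batch 1. Altogether 58 of the 705 rises of batch 2 were on one of the 3 sperm lists, and 592 were on no list, of which 409 depended on batch in the same way. The 3 lists held 27, 38 and 19 of the 14040 genes tested. How many tested genes were on no list was not counted, so 592 is no measure of an excess.

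None of the 33 oocyte and eggshell genes, the 24 meiosis genes or the 6 vitellogenin genes was called in either fit, with median log2 changes of -0.07, -0.02 and -0.01. Over both batches 3 of 33, 3 of 24 and 2 of 6 of these genes were higher, against 6573 of 14040 among all genes tested. By edgeR's unadjusted test at 0.05 none of them was past the threshold over both batches either. Over all genes tested, 0.648% were called over both batches and 5.16% within batch 2. Of 24 tested genes of early zygotic transcription none was called, with a median of 0.06, while in array animals 4 of them rose, with a median of 0.44. Between the array genotypes 1.31% of all genes tested were called. The genes called within batch 2 were unevenly spread over the chromosomes: on chromosome X 19 of 2055 tested genes were called, 0.925%, against 9.12% on chromosome IV and 4.09% to 6.69% on the other autosomes. Of 509 other tested genes within 2 Mb of egl-6, 7 were called within batch 2, 4 higher and 3 lower, and 1 was called over both batches. These 509 are 3.63% of genes tested, and the 3 are among 20 falls of batch 2.

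**Figure D5:**
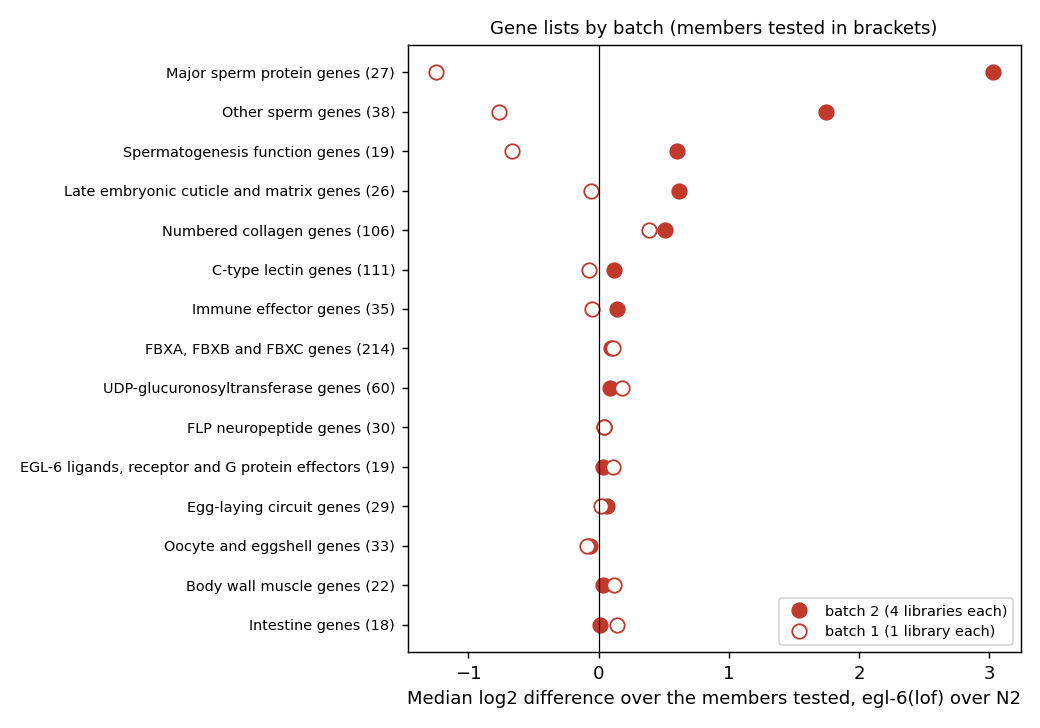
Median log2 difference between egl-6(lof) and N2 over the tested members of 15 gene lists (number in brackets), in batch 2 (filled, 4 libraries each) and in batch 1 (open, 1 library each). The msp genes lie at 3.03 in batch 2 and -1.25 in batch 1, whereas the numbered collagens lie at 0.51 in batch 2 and 0.39 in batch 1, and the neuronal lists lie near 0 in both.

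C-type lectin genes encode sugar-binding proteins, many of which are induced by bacteria in the intestine, while others are known only from sequence. Of 111 tested members none was called over both batches, where 11 were higher and 2 lower by edgeR's unadjusted test at 0.05. Among all 14040 genes tested, 934 were higher and 137 lower by that test. Within batch 2, where 5.16% of all genes tested were called, 19 were called, all higher. In batch 1 the log2 difference was 0.23 for clec-266, -0.01 for clec-85 and -0.14 for clec-67. It ran from -0.32 to -6.63 for the other called members. For 19 of the 111 tested members the difference depended on batch, as lower in batch 1, against 3.65% of all genes tested in either direction. The 19 calls within batch 2 became 11 with 10 counts required in every library of a genotype. They became 12 without N2 replicate 5 or egl-6(lof) replicate 4, and 24 with no count filter. The genes below differed far more between batches than clec-266, clec-85 and clec-67. The gene clec-79 (chromosome IV) had 1.29, 1.80, 1.69 and 0.768 CPM in the egl-6(lof) libraries of batch 2, against 0.168, 0.20, 0.247 and 0.0872 CPM in N2, and 0.576 CPM in egl-6(lof) and 1.61 CPM in N2 in batch 1. clec-123 changed by log2 2.61 (SE 0.34) in batch 2. Among lectin genes named here clec-99 differed most between batches (log2 -6.57, batch 1 minus batch 2), with 0.0557 CPM in egl-6(lof) and 1.97 CPM in N2 in batch 1.

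Collagen genes, which build the cuticle, were mostly slightly higher in both batches. Of 106 tested numbered collagens, 95 were higher in egl-6(lof), with a median log2 change of 0.54, against 6573 of 14040 over all genes tested. Within batch 2 the median was 0.51 and in batch 1 it was 0.39, and no member depended on batch. Only col-120 was called over both batches, at 1.08, 2.21, 0.97, 1.20 and 1.12 CPM in egl-6(lof), against 0.19, 0.595, 0.244, 0.171 and 0.157 CPM in N2 (log2 2.26, SE 0.53, adjusted p = 0.0483 by edgeR). The groups did not overlap, but this call was lost in 11 of 19 other settings. Within batch 2, where 5.16% of all genes tested were called, 13 members were called, all higher. That count was 28 with a replicate block, 5 with no count filter, 29 without N2 replicate 2, 3 without N2 replicate 4, 4 without N2 replicate 5, 5 without replicate 3 of N2 or replicate 2 of egl-6(lof), and 6 without egl-6(lof) replicate 4. Among the more abundant of them, col-129 (chromosome IV) had 195, 92.1, 89.2, 81.7 and 61.9 CPM in egl-6(lof), against 84.9, 59.8, 41.3, 25.3 and 34.5 CPM in N2, and each genotype was highest in batch 1. In array animals 57 of the 106 were higher and the median was 0.06. Summed, the 106 genes overlapped between genotypes, at 34675 to 43693 CPM in egl-6(lof) and 29123 to 45466 CPM in N2.

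Of 26 tested cuticle and matrix genes of late embryos, 20 were higher in egl-6(lof), with a median log2 change of 0.58. Among all genes tested, 6573 of 14040 were higher. The median was 0.62 in batch 2 and -0.06 in batch 1, where 11 of the 26 were higher. None was called over both batches, while 4 were higher and none lower by edgeR's unadjusted test at 0.05. That test gave 934 higher and 137 lower among all 14040 genes tested. Within batch 2, where 5.16% of all genes tested were called, 2 of the 26 were called, hch-1 and sym-1, near that share. The gene hch-1 encodes the astacin protease by which embryos hatch, and was at 1.01 to 1.54 CPM in the egl-6(lof) libraries of batch 2, against 0.228 to 0.644 CPM in N2. In batch 1 it was at 0.371 CPM in egl-6(lof) and 0.593 CPM in N2. It also rose in array animals, by log2 1.66 (SE 0.40, adjusted p = 0.0383 by edgeR). Of 30 tested genes of larval molting, 22 were higher, with a median of 0.09, and none was called in either fit. The part of embryos, molting animals and differences in age between samples in these values was not tested.

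Of 19 tested genes of the receptor's own pathway, its ligands, receptors and G protein effectors, egl-6 alone was called, in either fit, and it was also the one member past 0.05 unadjusted. The second ligand gene, flp-10, was at 3.64 ± 0.594 CPM in egl-6(lof) and 3.67 ± 0.564 CPM in N2. The Go alpha gene goa-1 was at 139 ± 7.35 CPM in egl-6(lof) and 147 ± 29 CPM in N2, and irk-1, of the inward rectifier potassium channel through which EGL-6 acts on HSN, at 0.386 ± 0.104 CPM in egl-6(lof) and 0.403 ± 0.13 CPM in N2. The ranges of flp-10, goa-1 and irk-1 overlapped between genotypes. The gene egl-47, of another inhibitory receptor of HSN, had 0.263 to 0.366 CPM in egl-6(lof) and 0.137 to 0.244 CPM in N2, without overlap, but its log2 change of 0.67 (SE 0.33) was not called (adjusted p = 0.704).

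None of the 29 tested genes of the egg-laying circuit, the 12 of BAG neurons, the 12 of peptide processing or the 30 flp genes was called in either fit, and none was past 0.05 by edgeR's unadjusted test over both batches. Over all genes tested 0.648% were called over both batches and 5.16% within batch 2, so that 0 calls in lists this short say little. The median log2 changes of these lists lay between 0.01 and 0.07. Examples are nlp-3, of an HSN neuropeptide that drives egg laying, at 2.77 ± 0.37 CPM in egl-6(lof) and 2.61 ± 0.549 CPM in N2, and tph-1, of serotonin synthesis, at 0.193 ± 0.0766 CPM in egl-6(lof) and 0.224 ± 0.0674 CPM in N2. Among BAG genes the guanylyl cyclase gene gcy-33 was at 0.36 ± 0.113 CPM in egl-6(lof) and 0.37 ± 0.0691 CPM in N2, and the transcription factor gene ets-5 at 0.257 ± 0.0752 CPM in egl-6(lof) and 0.342 ± 0.108 CPM in N2. Of these genes, irk-1, egl-47, tph-1, gcy-33 and ets-5 averaged under 1 CPM in both genotypes. Of 86 tested nlp and insulin-like peptide genes none was called over both batches and 2 within batch 2, nlp-4 (log2 1.19, SE 0.26) and ins-31.

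Few genes of stress and xenobiotic response were called over both batches. Over all genes tested, 0.648% were called over both batches, 5.16% within batch 2 and 1.31% between the array genotypes. Beside ugt-64, 2 of the 60 tested glucuronosyltransferase genes were called within batch 2 only, ugt-43 and ugt-53, at log2 0.61 (SE 0.14) and 0.51 (SE 0.10), and both were lower in egl-6(lof) than in N2 in batch 1. With 3 of 60 called within batch 2, the family was near the share of all genes. Of 214 tested FBXA, FBXB and FBXC genes, 3 were called over both batches, fbxa-192, fbxa-107 and fbxc-43 (log2 0.78, SE 0.13), and 149 were higher, with a median of 0.09. In array animals 19 of the 214 were called, all higher, with a median of 0.30. Of 35 immune effector genes none was called over both batches. By edgeR's unadjusted test at 0.05, 2 of them were higher, against 934 of all 14040 genes tested. Within batch 2, 4 of the 35 rose. The ShK-domain gene T24B8.5, a target of the PMK-1 p38 kinase pathway, was 1 of the 4, at 5.78, 5.66, 5.45 and 6.78 CPM in the egl-6(lof) libraries of batch 2, against 5.09, 2.93, 3.15 and 4.15 CPM in N2, where the highest N2 library lay just under the lowest of egl-6(lof). None of the 58 cytochrome P450, 47 glutathione transferase and antioxidant, 16 heat shock, 21 intracellular pathogen response or 179 nuclear hormone receptor genes was called in either fit.

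Some abundant genes called within batch 2 changed by little, whereas sax-2, ugt-64 and col-129 changed there by log2 -1.11, 1.25 and 1.03. The aspartyl protease gene asp-13 had 188, 194, 193, 185 and 159 CPM in egl-6(lof), against 161, 170, 152, 140 and 138 CPM in N2, and was also called over both batches (log2 0.27, SE 0.06, adjusted p = 0.0338 by edgeR). The groups overlapped through 1 egl-6(lof) library, and the call was lost in 9 of 19 other settings. Another collagen gene, col-142, rose by 0.62 (SE 0.17) within batch 2, but lost this call in 11 of 15 other settings. Among abundant falls of batch 2, the protein disulfide isomerase gene pdi-6 fell by 0.19 on the log2 scale (SE 0.05), a call lost in 5 of 15 other settings, and dsc-4, of a microsomal triglyceride transfer protein that loads lipoproteins, fell by 0.30 (SE 0.07). The dsc-4 transcript averaged 49.3 ± 2.99 CPM in the egl-6(lof) libraries of batch 2 and 61.2 ± 4.37 CPM in those of N2 (SD, n = 4 each), without overlap, but in batch 1 at 58.0 CPM in egl-6(lof) and 48.5 CPM in N2.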

How the data were processed

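The values deposited by the authors are whole-number read counts of each gene in each library, with no scaling applied. Reads were aligned with STAR 2.7.11b to ce11, per the submitters' processing notes. How reads were assigned to genes, and whether strand was used, is not given in the sources at hand. Gene positions were taken from Ensembl 115 for this assembly, where 40181 of 42532 genes were matched by symbol and 2260 through other names.

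Counts were scaled by TMM and fitted with edgeR 4.0.16 (robust quasi-likelihood) in R 4.3.3, with genotype and batch as terms over all 25 libraries, with genotype alone over the 20 libraries of batch 2, and with a genotype by batch term for the dependence on batch. The batch 1 difference is that of log2 CPM with a prior count of 2, without test. SEs are log2 change over the square root of F. Genes counted as called had an adjusted p under 0.05, with no minimum fold. Replicates of a genotype differed by a chi-square per gene of at least 11.95, well above sampling noise. One library, flp-17(lof) replicate 1, stood apart, with 25164923 counts and 9.5% from ribosomal RNA genes, and enters the fit through batch and spread.

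Named genes are egl-6, flp-17 and myo-3; the 12 largest rises and falls over both batches and 10 within batch 2 (mean log2 CPM of at least 1, libraries on one side of the other genotype's mean, or groups not overlapping in batch 2); the 6 most abundant calls of batch 2 per direction; up to 4 called members per list; the 4 genes with the strongest dependence on batch; and genes called in both backgrounds. The text gives values for part of them. The comparison and the 36 lists were chosen with earlier results of these data known. Alternatives were other scaling (DESeq2-type size factors), DESeq2 1.42.0, other count filters, no batch term, a replicate block, fewer genotypes and single libraries left out.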

Additional observations from a re-analysis of the deposited data

Results flagged for a closer look

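Within a genotype, 1 library lay far from the other 4 for several genes described above, by a test that chance meets in about 1 group in 20. In N2, replicate 1 (batch 1) lay high for sperm genes, with 11.94 CPM of msp-81, 9.851 CPM of msp-31, 15.97 CPM of ssq-1, 20.94 CPM of ssq-2, 2.611 CPM of spe-11, 3.893 CPM of gsp-4, 8.189 CPM of gipc-1 and 5.056 CPM of nspd-1. It also lay high for clec-79 (1.614 CPM), clec-123 (2.374 CPM), clec-99 (1.97 CPM) and K07A1.5 (0.9495 CPM). In egl-6(lof), replicate 1 lay low for T03D3.5 (13.91 CPM), pud-3 (7.242 CPM), T24B8.5 (2.024 CPM), C38D9.2 (0.3528 CPM) and F40D4.13 (0.3714 CPM), and high for T10D4.6 (23.71 CPM) and col-129 (194.6 CPM). For col-120, replicate 2 stood highest in each genotype, at 2.207 CPM in egl-6(lof) and 0.5948 CPM in N2. For asp-13, replicate 5 of egl-6(lof) stood low, at 158.8 CPM.

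The difference between egl-6(lof) and N2 depended on batch for 20 of the genes described, by edgeR's test, given here as log2, batch 1 minus batch 2. Among sperm genes it was -4.724 for msp-81, -3.826 for msp-31, -3.257 for ssq-1, -4.455 for ssq-2, -4.769 for spe-11, -4.025 for gsp-4, -3.892 for gipc-1 and -3.817 for nspd-1. Among the others it was -4.465 for clec-79, -3.981 for clec-123, -6.571 for clec-99, -5.263 for K07A1.5, -2.529 for pud-3, -3.414 for pud-4 and -2.664 for C38D9.2. It was smaller for T24B8.5 (-1.55), ugt-43 (-1.243), B0511.11 (-1.097) and T03D3.5 (-0.523), and of the other sign for dsc-4 (0.5693). The effect of egl-6(lof) on B0511.11 also differed between backgrounds, by -2.519 on the log2 scale, array minus plain.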

How the results depend on the processing

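The number of genes called over both batches, 91, was 350 with DESeq2, 244 without flp-17(lof) replicate 1, 48 with no count filter, 39 with the egl-6(lof) and N2 libraries alone and 35 with no batch term. The 39 share 31 genes with the 91. Leaving out 1 egl-6(lof) or N2 library gave 30 to 583. Without flp-17(lof) replicate 1 the array genotypes differed in 310 genes in place of 184. Within batch 2 the count of 725 ran from 599 to 798 when 1 library was left out and from 570 to 886 under the other settings, and the count for dependence on batch ran from 432 to 516. The cause of these shifts was not tested. Replicate numbers did not pair egl-6(lof) with N2: same-numbered deviations correlated between -0.391 and 0.391, and 1 of 5 libraries correlated best with its own number. With a replicate block in place of batch, 82 genes were called over both batches, 785 within batch 2, 216 between the array genotypes and 6 in place of 12 for the difference between backgrounds (the last chosen after seeing the data). Of 37 genes described as called over both batches, 19 kept the call in every setting and 18 lost it in at least 1. Of 18 called within batch 2 alone, 12 kept it and 6 lost it, and no described gene reversed. DESeq2-type scaling moved the counts of calls by under 1.5 times. Genes at under 1 CPM rest on few counts, such as 9 to 27 per N2 library for C08F11.7.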

Other observations

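The neighbouring names pud-3 and pud-4, of proteins named for being up-regulated in daf-2 insulin receptor mutants, gave some of the more abundant rises of batch 2. The gene pud-3 had 31.9, 41.8, 35.6 and 37.1 CPM in the egl-6(lof) libraries of batch 2, against 13.1, 9.59, 16.8 and 10.4 CPM in N2, and 7.24 CPM in egl-6(lof) and 14.3 CPM in N2 in batch 1. The gene pud-4 had 14.7, 20.5, 16.6 and 17.7 CPM in the egl-6(lof) libraries of batch 2, against 4.21, 2.93, 6.10 and 3.61 CPM in N2, and 1.99 CPM in egl-6(lof) and 5.15 CPM in N2 in batch 1. Both were higher in every egl-6(lof) library of batch 2 and lower in that of batch 1.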
